A study of Mus musculus with 6 samples.

Results

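The genes described here encode the mitochondrial respiratory chain and ATP synthase, and were followed in mouse embryonic stem cells exposed to low levels of histone deacetylase inhibitors. They were taken by symbol from the array's probe annotation (Nduf, Sdh, Uqcr, Cyc1, Cycs, Cox4 to Cox8 and Atp5 genes), using probesets with a single symbol, and where a gene had several, the one with the highest average value was read. This gave 91 genes of 19938 measured, from 118 probesets. By complex they were 34 genes of complex I, 4 of complex II, 9 of complex III, cytochrome c, 19 of complex IV, 17 of complex V (ATP synthase) and 7 complex I assembly factors whose symbols start with Ndufaf. Ndufa4, named for complex I but a subunit of complex IV, and its paralog Ndufa4l2 were counted with complex IV.

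The respiratory chain moves electrons from NADH (complex I) and succinate (complex II) through ubiquinone, complex III and cytochrome c to oxygen at complex IV. Complexes I, III and IV pump protons across the inner mitochondrial membrane, and complex V uses the gradient to make ATP. Most subunits are encoded in the nucleus, as all genes described here are, and a small hydrophobic set is encoded in mitochondrial DNA and made on mitochondrial ribosomes. Undifferentiated stem cells are known for a high rate of glycolysis beside active respiration. The transcription factors Nrf1, Gabpa and Yy1 are known to bind promoters of many of these nuclear genes.

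The cells were of the E14 line, kept in serum with leukemia inhibitory factor on a layer of embryonic fibroblasts stopped from dividing with mitomycin C. Both kinds of cell can therefore contribute RNA, and the labels do not say that the fibroblasts were removed. Duplicate samples were untreated, exposed to 0.5 mM valproic acid (VPA) or exposed to 0.2 mM sodium butyrate (NaBu) for 16 h, and total RNA of each was hybridised to 1 Affymetrix one-colour array, 6 arrays in all. The labels number the samples of each condition 1 and 2 without saying whether they were separate cultures, so p-values measure only the spread between these samples, which may be technical. Values are log2 intensities, differences are log2 differences, and intervals are 95% intervals from limma. A gene is called when its limma p-value, after Benjamini-Hochberg adjustment across the 19938 genes, is under 0.05.

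The stem cell label could be checked on 10 markers, including Pou5f1 and Nanog, and all 10 lay at or above the median level of all genes. Of 17 fibroblast markers, 15 also did. Their mean over the list was 7.08 to 7.34 on the replicate 1 arrays and 7.77 to 7.99 on the replicate 2 arrays, which do not overlap. A list of 22 glycolysis and hypoxia-response genes had array means of 10.18 to 10.21 in replicate 1 and 10.82 to 10.95 in replicate 2. In RNA from mixed cells, fewer cells of a type and less RNA per cell cannot be told apart.

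RefSeq promoter windows, which run from 250 bases before to 50 bases after a gene's start on GRCm38.p6, were found for 74 of the 91 genes, as 79 windows. Letters that the Nrf1 factor is known to favour (GCGCANGCGC, either strand) were in 24.1% of these windows and in 4.6% of all 32851 windows of that length. The ETS letters bound by the Gabpa family (CCGGAAG, either strand) were in 22.8% against 8.86%, and those of Yy1 (AAGATGGC, either strand) in 12.7% against 2.75%. At least 1 of the 3 was in 51.9% against 14.7%. The core letters of the hypoxia-inducible factor site (ACGTG, either strand) were in 25.3% against 19.6%. The windows were not matched on base composition, and a match describes letters and not binding.

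The upstream part of 3 promoters is shown because these genes were called lower in the replicate 2 arrays, as described further on, and hold such letters, as examples of the Nrf1 and ETS motifs. They are Ndufs5 (chr4:123718187-123718436, minus strand), Ndufs6 (chr13:73328483-73328732, minus strand) and Uqcrh (chr4:116075071-116075320, minus strand), written 5′ to 3′ on the gene's strand. Capitals mark the Nrf1 letters in Ndufs5 and Ndufs6 and the ETS letters in Uqcrh, in the orientation in which they lie.
Ndufs5: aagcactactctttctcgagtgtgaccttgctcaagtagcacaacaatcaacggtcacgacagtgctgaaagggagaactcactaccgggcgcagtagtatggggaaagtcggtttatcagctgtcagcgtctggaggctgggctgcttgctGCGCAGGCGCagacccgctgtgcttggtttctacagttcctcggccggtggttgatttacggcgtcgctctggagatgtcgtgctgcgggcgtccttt
Ndufs6: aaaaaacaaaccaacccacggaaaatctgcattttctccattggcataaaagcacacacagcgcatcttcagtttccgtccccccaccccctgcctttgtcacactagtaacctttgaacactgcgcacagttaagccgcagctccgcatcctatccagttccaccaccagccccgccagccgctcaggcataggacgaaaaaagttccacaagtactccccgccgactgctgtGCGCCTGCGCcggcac
Uqcrh: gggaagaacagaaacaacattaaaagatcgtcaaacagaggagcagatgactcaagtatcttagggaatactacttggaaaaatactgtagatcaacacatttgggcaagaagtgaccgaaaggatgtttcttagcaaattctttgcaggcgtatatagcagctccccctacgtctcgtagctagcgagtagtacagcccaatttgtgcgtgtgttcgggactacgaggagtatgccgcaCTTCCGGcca
The capitals lie 98 to 89 bases before the start in Ndufs5, 16 to 7 in Ndufs6 and 10 to 4 in Uqcrh. Ndufs6 also holds the Yy1 letters after its start, outside the stretch shown. Of the 10 genes called lower that had a window, 5 (Atp5l, Ndufaf1, Ndufs5, Ndufs6 and Uqcrh) held at least 1 of the 3 motifs, against 40 of the 74 genes with a window. For the Nrf1 letters the counts were 2 of 10 and 18 of 74.

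The levels of these genes followed the replicate number. The mean over the 91 genes was 8.87 to 8.89 on the 3 replicate 1 arrays and 8.67 to 8.75 on the 3 replicate 2 arrays. The difference of replicate 2 from replicate 1 was larger in size than that of VPA from untreated cells for 66 of 91 genes (72.5%, against 53.7% of all genes). Most of the 91 genes, 84, lay at or above the median level of all genes. In the heat map, where each gene is shown relative to its own mean, the replicate 1 arrays are mostly above it and the replicate 2 arrays below it in all 3 conditions.

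**Figure D1:**
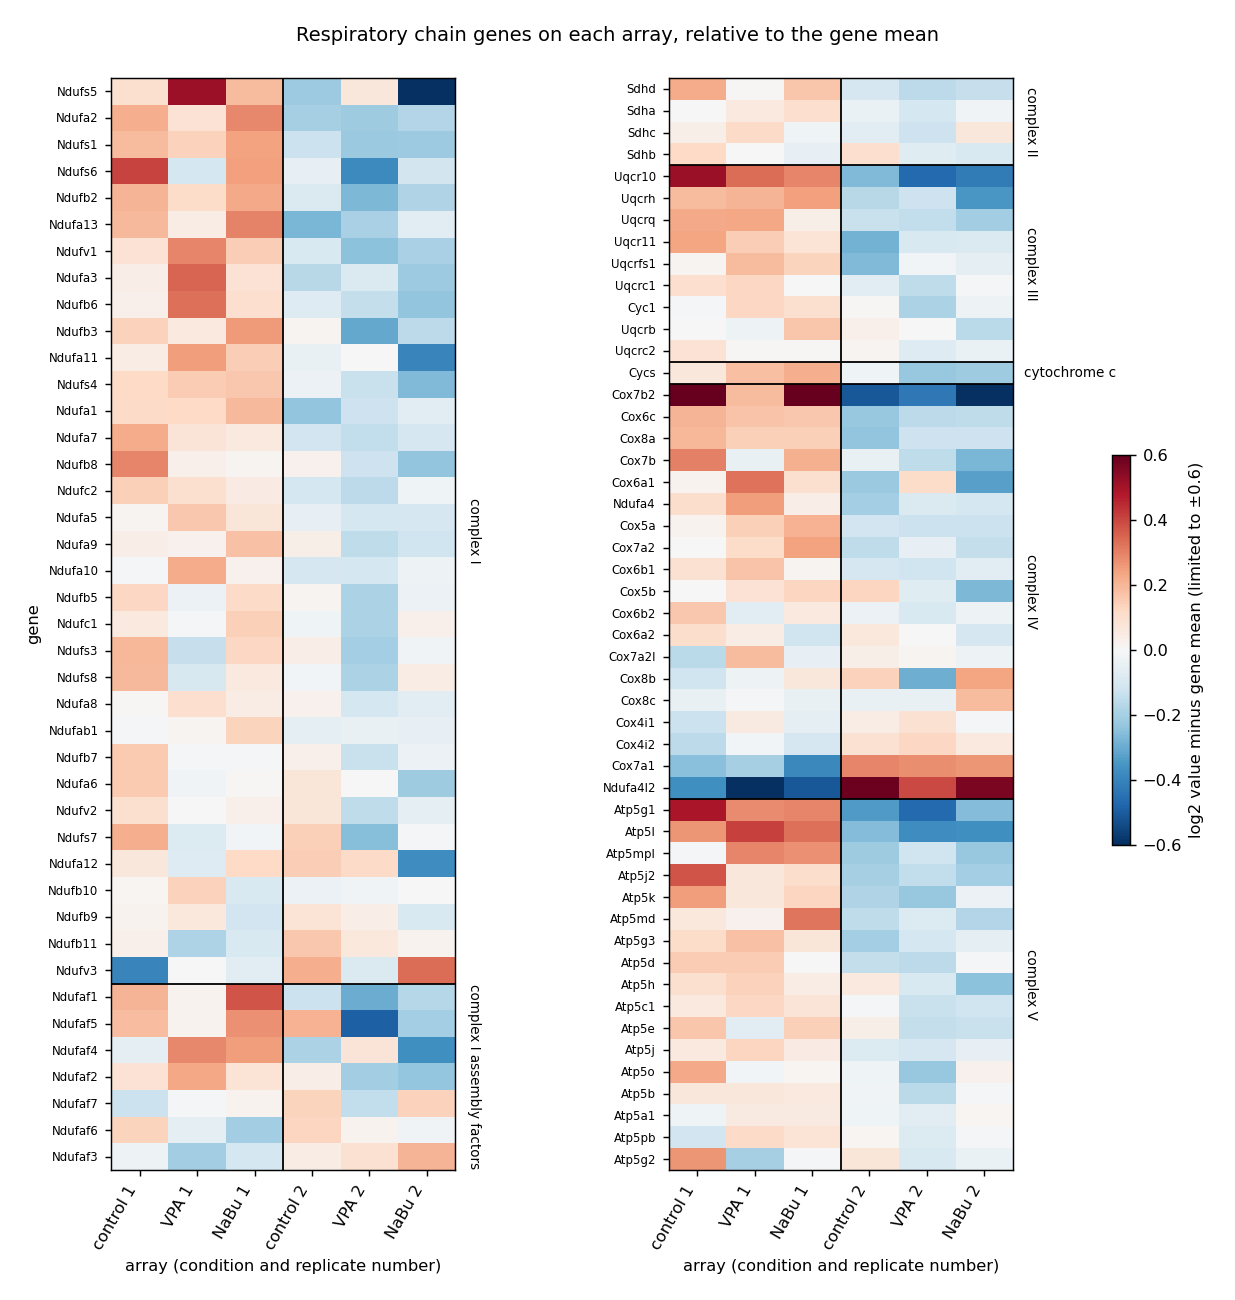
Log2 value of each of the 91 genes (rows, by complex and ordered by the replicate difference) on each of the 6 arrays (columns, replicate 1 left of the line and replicate 2 right of it), minus the gene's mean over the arrays; colours stop at ±0.6. Most rows change from red to blue across the line, and Ndufa4l2 and Cox7a1 change the other way.

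Replicate 2 was compared with replicate 1 in a model with a term for each condition. Respiratory chain genes lay lower in replicate 2, with a median difference of -0.17 against 0.01 over all genes, and 78 of 91 lay below 0. The median was -0.13 within untreated cells, -0.22 within VPA and -0.17 within NaBu, with 72, 80 and 73 of the 91 below 0. limma called 16 of the 91, 14 lower and 2 higher, in a comparison that called 11.6% of all genes, 5.56% lower and 6.04% higher. The share called in either direction, 17.6%, is the same as that of the genes at or above the median level, 17.6%, while the share called lower was 15.4% against 8.55% of those genes.

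Without a test, 46 of the 91 had all 3 replicate 2 arrays below all 3 replicate 1 arrays, which held for 13.7% of all genes and 20.7% of those at or above the median level. The opposite held for 4 genes, against 13.5% of all genes. The number of members called was 8 without the untreated arrays (8.79%, where 6.87% of all genes were called), 5 without the NaBu arrays (5.49%, against 3.59%) and 15 without the VPA arrays (16.5%, against 12.2%). Uqcr10, Atp5g1, Atp5l, Cox7b2 and Ndufa4l2 were called in all 3 of these. Centring each array on its median moved the split of calls over all genes from 47.9% to 58.7% lower, and then 21 of the 91 genes were called lower and 2 higher, which is 25.3% of them, beside 12.9% of all genes (1507 of 2567 calls lower).

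**Figure D2:**
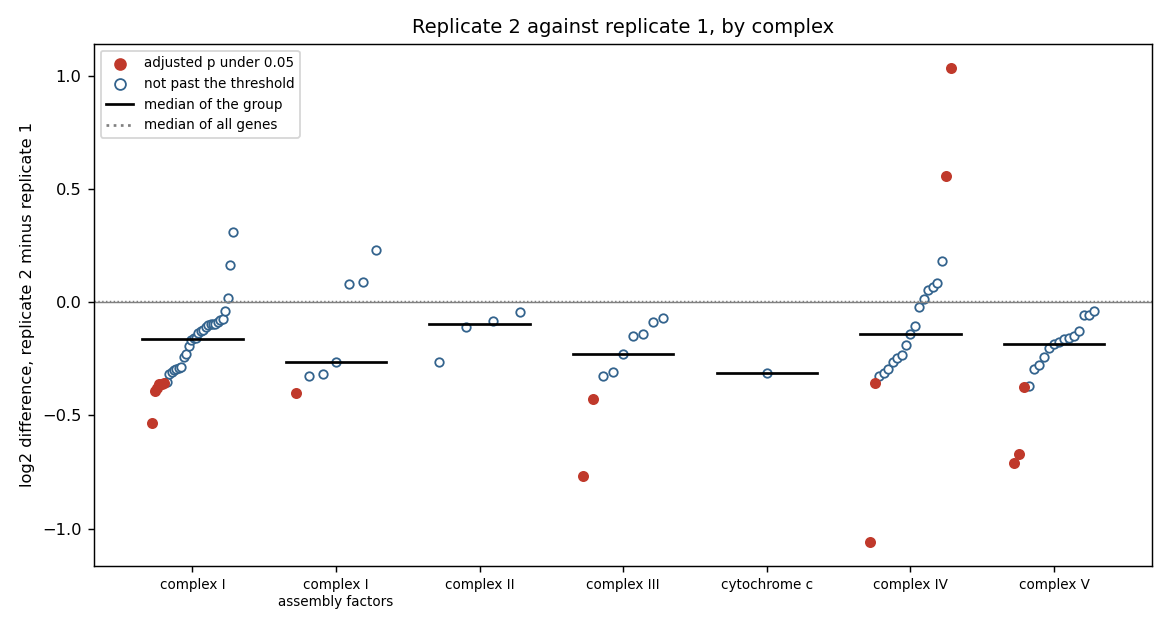
Log2 difference of replicate 2 minus replicate 1 for each gene (1 point a gene, filled where called), by complex; bars are medians and the dotted line is the median of all genes, 0.01. All genes of complexes II, III and V lie below 0, and the 2 called points above 0 are in complex IV.

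Complex I takes electrons from NADH. Its 34 genes had a median difference of -0.16, with 31 below 0, 6 called lower and 0 higher. Complex I thus had 17.6% of its genes called, against 11.6% of all genes and 17.6% of those at or above the median level. Its 6 measured core subunits, which carry the redox centres or hold them, had a median of -0.12 and all lay below 0. Ndufs1, the largest iron-sulphur subunit, was 10.26, 10.21 and 10.31 in replicate 1 (untreated, VPA, NaBu) and 9.94, 9.85 and 9.85 in replicate 2. The 2 sets of arrays do not overlap, and the difference of -0.38 (-0.58 to -0.17) was called (adjusted p = 0.0319). The calls of Ndufs1, Ndufb2, Cox6c and Atp5mpl were each lost whichever condition was left out. Ndufv1, which binds NADH, differed by -0.35 (adjusted p = 0.06), and Ndufs7, an iron-sulphur subunit next to the ubiquinone site, by -0.08.

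The 28 accessory subunits of complex I, which stabilise it and take no part in electron transfer, had a median of -0.18. Of them 25 lay below 0 and 5 were called lower (17.9%, against 11.6% of all genes called). Ndufs5 was 6.37, 6.79 and 6.46 in replicate 1 and 6.05, 6.34 and 5.62 in replicate 2. It differed by -0.53 (-0.80 to -0.26, adjusted p = 0.025), and every replicate 2 array was below every replicate 1 array. A probeset that also lists the pseudogene Ndufs5-ps was not used, and whether the pseudogene's RNA adds to the value was not tested. Ndufs6 was 8.94, 8.43 and 8.78 in replicate 1 and 8.49, 8.16 and 8.43 in replicate 2. It was lower in replicate 2 in each condition, but the untreated replicate 2 array was above the VPA replicate 1 array (difference -0.36, adjusted p = 0.0389).

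Ndufa2 (-0.39), Ndufb2 (-0.36) and Ndufa13 (-0.36), the last also known as a partner of Stat3, were called lower as well, at adjusted p of 0.0288 to 0.0446. Ndufv3, Ndufb11 and Ndufb9 were the 3 complex I genes above 0, at 0.31, 0.16 and 0.02, none of them called. Ndufv3 was 7.81, 8.20 and 8.13 in replicate 1 and 8.42, 8.12 and 8.54 in replicate 2, so it was lower in replicate 2 with VPA and higher in the other conditions. Of the 7 Ndufaf assembly factors, which help build complex I without being part of it, 4 lay below 0. Ndufaf1 was called (-0.40, adjusted p = 0.0317), and Ndufaf3 was at 0.23 with no overlap (adjusted p = 0.167).

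Complex II, which is also an enzyme of the TCA cycle, had its 4 genes between -0.26 and -0.04 and 0 called, against 11.6% of all genes, with 1 lower at an unadjusted p under 0.05 in limma. Sdhd, a membrane anchor, was at -0.26 (adjusted p = 0.0999), and its arrays did not overlap. Sdha, the flavoprotein that oxidises succinate, was at -0.11, Sdhc, the other anchor, at -0.08 and Sdhb, the iron-sulphur subunit, at -0.04.

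Complex III passes electrons from ubiquinol to cytochrome c. Its 9 genes had a median of -0.23, all below 0, with 2 called lower (22.2%, against 11.6% of all genes called). Uqcr10, a small subunit, was 8.21, 8.02 and 7.98 in replicate 1 and 7.42, 7.22 and 7.27 in replicate 2. The gap between the 2 sets was wider than the spread within either. The difference was -0.77 (-0.97 to -0.57, adjusted p = 0.00202), which is 58.8% of the replicate 1 intensity.

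Uqcrh, the hinge subunit that contacts cytochrome c1, was 9.46, 9.47 and 9.52 in replicate 1 and 9.10, 9.14 and 8.92 in replicate 2, with no overlap (-0.43, adjusted p = 0.0271). Uqcrfs1, the Rieske iron-sulphur protein, differed by -0.23, Cyc1, cytochrome c1, by -0.14, the core proteins Uqcrc1 and Uqcrc2 by -0.15 and -0.07, and Uqcrb by -0.09, and none of these was called. Cycs, the mobile cytochrome c, was 10.55, 10.66 and 10.70 in replicate 1 and 10.46, 10.25 and 10.27 in replicate 2, and its difference of -0.31 was not called (adjusted p = 0.09).

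Complex V had all 17 genes below 0, with a median of -0.19, 3 called lower and 11 without overlap. The 3 calls make 17.6%, against 11.6% of all genes and 17.6% of those at or above the median level. The 11 make 64.7%, where 13.7% of all genes and 20.7% of those at or above the median level were lower without overlap. The 5 genes of the catalytic F1 head and its stalk had a median of -0.16 with 0 called, and 0 also at an unadjusted p under 0.05. Atp5a1 (alpha) was at -0.06, Atp5b (beta) at -0.13 and Atp5c1 (gamma) at -0.17. The 12 genes of the membrane part and the peripheral stalk had a median of -0.26, and all 3 calls were among them.

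Atp5g1, Atp5g2 and Atp5g3 encode the same mature c subunit of the rotor ring, and their replicate differences were unlike in size. Atp5g1 was 9.30, 9.10 and 9.11 in replicate 1 and 8.47, 8.35 and 8.55 in replicate 2, with no overlap. The difference was -0.71 (-0.93 to -0.49, adjusted p = 0.00414), and its other probeset gave -0.71. Atp5g3 differed by -0.24 (-0.45 to -0.03) and Atp5g2 by -0.04 (-0.26 to 0.18), neither of them called, and the difference between the 3 genes was not tested.

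Atp5l, subunit g of the membrane part, was 9.24, 9.39 and 9.31 in replicate 1 and 8.71, 8.60 and 8.61 in replicate 2. The sets did not overlap, and the difference was -0.67 (adjusted p = 0.00493). Its 6 probesets gave -0.74 to -0.67. Atp5mpl, a small proteolipid of the membrane part, was called at -0.37 (adjusted p = 0.0444).

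Complex IV, which reduces oxygen, was divided. Its 19 genes had a median of -0.14, with 12 below 0, 2 called lower and 2 called higher (21.1% called, against 11.6% of all genes). The 11 genes for general subunits had a median of -0.25 with 9 below 0, while 8 tissue or condition isoforms had a median of 0.06 with 3 below 0. Cox6c, a general subunit, was 11.37, 11.34 and 11.33 in replicate 1 and 10.94, 11.01 and 11.02 in replicate 2, with no overlap (-0.36, adjusted p = 0.0378). Cox8a was at -0.32 (adjusted p = 0.0562), and Cox6b1 at -0.19. Cox5a was at -0.25 and Cox5b at -0.14, and Cox4i1, the largest nuclear-encoded subunit, was at 0.09, all uncalled.

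Ndufa4l2, a paralog of Ndufa4 known to be induced by hypoxia-inducible factor, rose most of the 91 genes. It was 7.70, 7.39 and 7.56 in replicate 1 and 8.66, 8.47 and 8.63 in replicate 2, so the sets lay apart. The difference was 1.04 (0.83 to 1.24, adjusted p = 0.000637), a ratio of 2.05. Ndufa4 itself was at -0.26 (adjusted p = 0.107), with no overlap.

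Cox7a1, the isoform of heart and skeletal muscle, was 7.14, 7.19 and 7.00 in replicate 1 and 7.68, 7.67 and 7.65 in replicate 2. It was higher in every replicate 2 array (0.56, 0.35 to 0.76, adjusted p = 0.00845), while the general isoform Cox7a2 was at -0.23 (adjusted p = 0.163). Of 6 muscle markers 0 were called higher and 2 lower (33.3% called, against 11.6% of all genes), and 1 lay at or above the median level. Their array means were 5.36 to 5.59 in replicate 1 and 5.27 to 5.41 in replicate 2. Cox4i2, the isoform of lung and hypoxic cells, was 5.84, 5.99 and 5.90 in replicate 1 and 6.09, 6.13 and 6.06 in replicate 2. Its arrays did not overlap, but the difference of 0.18 was not called (adjusted p = 0.234).

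Cox7b2, a testis isoform, was 5.01, 4.43 and 4.86 in replicate 1 and 3.72, 3.81 and 3.59 in replicate 2, and was dim, with a mean level at the 29.9th percentile of all genes. Its difference was called at -1.06 (-1.38 to -0.74, adjusted p = 0.00386), whose size is uncertain at such a level, and the general isoform Cox7b was at -0.31 (adjusted p = 0.0883). Of 6 testis and germ cell markers 0 were called, against 11.6% of all genes, with 2 lower at an unadjusted p under 0.05 in limma, and their array means were 6.11 to 6.72 and 6.18 to 6.38. Cox6a2, Cox6b2, Cox8b and Cox8c, the other isoforms of muscle, testis and other tissues, were between -0.11 and 0.07 and were not called. Cox6a2, Cox8b and Cox8c were dim as well, at 3.53 to 5.08.

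**Figure D3:**
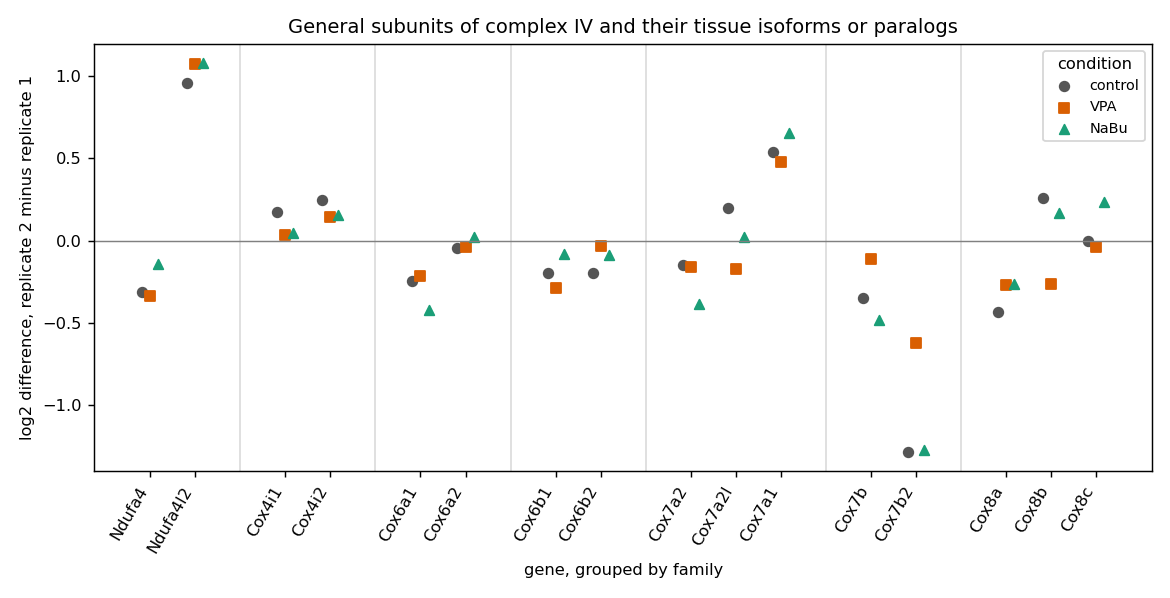
Log2 difference of replicate 2 minus replicate 1 (y axis) within each condition (circles untreated, squares VPA, triangles NaBu; 1 array against 1, so no error bars) for complex IV genes that encode alternative forms of one subunit, grouped by family (x axis). All 3 points of Cox7a1 and Ndufa4l2 lie above 0, and all 3 of Cox7a2, Ndufa4 and Cox7b2 below it.

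VPA and untreated cells were compared first. limma called 0 of the 91 genes and 0 (0%) of all genes, and at an unadjusted p under 0.05 2 of the 91 were lower and 0 higher, against 981 of all genes. The median difference was -0.04, against 0.01 over all genes, and 55 of 91 lay below 0. Differences ran from -0.43 (Ndufaf5) to 0.35 (Ndufs5). Both VPA values lay below both untreated values for 18 of the 91 genes and above them for 3. The same held for 3107 and 3813 of all 19938 genes, so a lack of overlap between 2 and 2 arrays was common. Interval half-widths had a median of 0.39, and 47 of the 91 intervals lay within -0.5 to 0.5, so many effects of this size were not resolved. With the replicate number as a block the median half-width was 0.26, 80 intervals lay within -0.5 to 0.5, and 0 genes were called. Same-numbered samples differed in the same direction for 36 genes lower in both sets, 39.6% against 28% of all genes, and for 16 genes higher in both, 17.6% against 32%. Of genes at or above the median level, 35.4% were lower in both sets and 31.2% higher, so the share of members lower in both was near that background.

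No subunit of complex I was called with VPA, and its core subunits lay mostly below 0. Of the 6 measured core subunits, 5 were lower in both replicate sets, and their median was -0.20. Of the 10 stem cell markers 9 were lower in both sets with VPA, with a median of -0.27 and 0 called, 2 of them lower at an unadjusted p under 0.05 in limma, and their part in the subunits' values was not tested. Ndufs7 was 8.93 and 8.85 in untreated cells, 8.63 and 8.45 with VPA and 8.69 and 8.70 with NaBu. Both VPA values were below both untreated values, and the difference was -0.35 (-0.64 to -0.06, adjusted p = 0.964).

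Ndufs3 was at -0.29 (-0.59 to 0.01) and Ndufs8, the other iron-sulphur subunit beside the ubiquinone site, at -0.23 (-0.54 to 0.07). Ndufv2 was at -0.16, Ndufs1 at -0.07 and Ndufv1 at 0.03. Ndufs6, an accessory subunit, was 8.94 and 8.49 in untreated cells and 8.43 and 8.16 with VPA. Its difference was -0.51 within set 1 and -0.33 within set 2. Both VPA values lay below both untreated values by a narrow margin, and the pooled difference was -0.42 (-0.93 to 0.09), which was not called.

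Of the 11 general subunits of complex IV 9 lay above 0 with VPA, none of them called, with a median of 0.05 over the 11. Of the 11, 4 were higher in both sets (36.4%), near the 32% of all genes and 31.2% of those at or above the median level. Cox6a1, a general subunit, was 10.06 and 9.82 in untreated cells and 10.36 and 10.15 with VPA, with no overlap between the groups. It differed by 0.30 in set 1 and 0.33 in set 2, and the pooled difference was 0.32 (-0.13 to 0.76, or 0.06 to 0.58 with the replicate block, adjusted p = 0.292). NaBu gave 10.13 and 9.71, which span the untreated values.

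Over all their genes complexes I and IV had medians of -0.07 and 0.02 with VPA. Without VPA replicate 2 complex I was at 0.048, and with median centring complex IV was at -0.016. The other complexes had medians of -0.07 (II), -0.03 (III) and -0.03 (V), and these signs were not stable either. With quantile normalization III was at 0.0048 and V at 0.033, without untreated replicate 1 they were at 0.18 and 0.097, with II at 0.020, and without VPA replicate 2 at 0.17 and 0.080, with II at 0.013. Atp5g2, 1 of the 3 c subunit genes, was 10.90 and 10.70 in untreated cells, 10.43 and 10.54 with VPA and 10.62 and 10.59 with NaBu. Its difference with VPA was -0.31 (-0.62 to -0.01, adjusted p = 0.964), while Atp5g1 was at -0.17 and Atp5g3 at 0.08. Uqcrfs1, the Rieske protein, stood at 0.21 (-0.17 to 0.59), higher in both sets. Cox7a2l, which is known for its part in supercomplexes, was at 0.17, and the complex I accessory subunit Ndufa3 at 0.19. Among assembly factors, Ndufaf5, which modifies Ndufs7, was at -0.43 (-0.98 to 0.12) and Ndufaf4 at 0.31 (-0.22 to 0.83).

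Cycs was at -0.05 (-0.53 to 0.44) with VPA. Its testis counterpart Cyct, which lies outside the 91 genes, was 7.22 and 6.86 in untreated cells, 7.95 and 7.42 with VPA and 7.56 and 7.36 with NaBu. Both VPA values were above both untreated values, and the difference of 0.64 (0.11 to 1.17) was not called (adjusted p = 0.964).

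**Figure D4:**
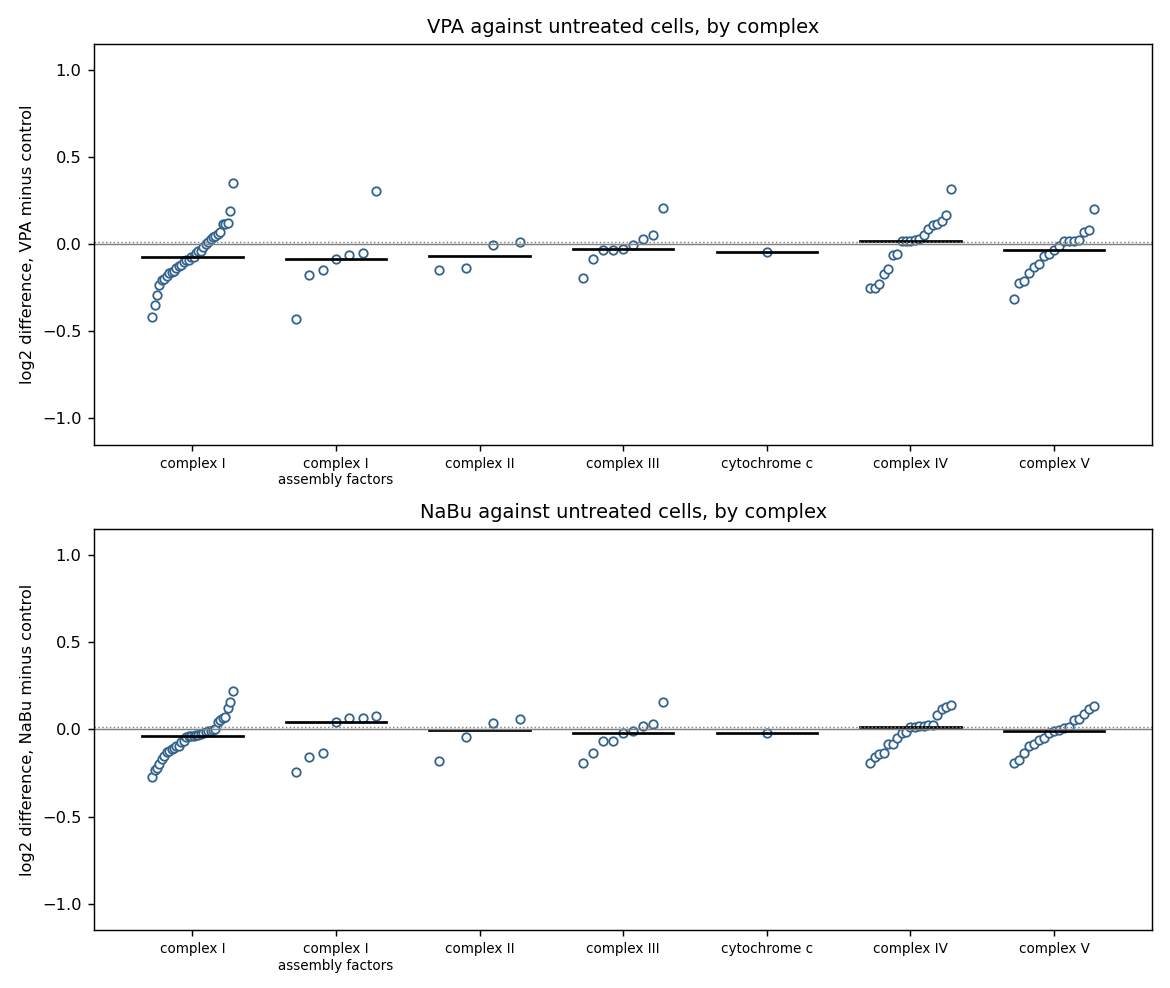
Log2 difference from untreated cells with VPA (top) and NaBu (bottom) for each gene (1 open point a gene), by complex; bars are medians and the dotted line is the median of all genes. No point is called, and the points run from -0.43 to 0.35 with VPA and from -0.27 to 0.22 with NaBu.

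With NaBu the differences from untreated cells ran from -0.27 to 0.22. limma called 0 of the 91 genes and 0 (0%) of all genes, and 0 of the 91 had an unadjusted p under 0.05, against 311 of all genes. The median was -0.02, against 0.01 over all genes, with 57 below 0. The 26 genes lower in both sets make 28.6%, against 23.1% of all genes, and the 13 higher in both 14.3%, against 29.1%. Of genes at or above the median level, 21.1% were lower in both sets and 32.1% higher. Both NaBu values lay below both untreated values for 13 of the 91 genes and above them for 1, beside 2228 and 2530 of all 19938 genes. The untreated arrays are shared with the VPA comparison. Of the 17 fibroblast markers 15 lay above 0 with NaBu, with a median of 0.14 and 0 called. Higher in both sets were 11 of them (64.7%, against 29.1% of all genes and 32.1% of those at or above the median level). Their part in the values of the 91 genes was not tested.

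Complex I had a median of -0.04 with NaBu and complex IV of 0.01, and without NaBu replicate 2 complex I was at 0.074, while without NaBu replicate 1 complex IV was at -0.065. Ndufb8, an accessory subunit, had the lowest difference. It was 7.97 and 7.69 in untreated cells and 7.69 and 7.43 with NaBu, so both NaBu values lay below the untreated ones by a narrow margin, and differed by -0.27 (-0.65 to 0.11). Ndufs7 was at -0.20 (-0.49 to 0.10), Sdhb at -0.18, Ndufa6 at -0.22, Cox6a2 at -0.19 and Ndufaf6 at -0.25. On the other side were Ndufv3 at 0.22, Uqcrfs1 at 0.16, Ndufa13 at 0.16 and Cox7a2 at 0.13.

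VPA and NaBu were compared directly, at doses that differ (0.5 mM and 0.2 mM). limma called 0 of the 91 genes and 0 (0%) of all genes, and 0 of the 91 had an unadjusted p under 0.05, against 724 of all genes. The median difference of VPA from NaBu was -0.02, and 51 of 91 lay below 0. The sign turned with quantile normalization (0.028, 38 of 91 below 0), without VPA replicate 2 (0.085) and without NaBu replicate 1 (0.068). Ndufs5 had the highest difference, 0.52 (-0.21 to 1.25), followed by Cox6a1 at 0.33 (-0.11 to 0.78). At the other end Cox8b was at -0.31 (-0.69 to 0.07), Ndufs6 at -0.31 (-0.82 to 0.20) and Ndufs3 at -0.22 (-0.53 to 0.08). Ndufc1 was at -0.19. Of the 91 intervals, 50 lay within -0.5 to 0.5, or 80 with the replicate block, and the others allow larger differences between the compounds.

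Other mitochondrial genes were read in the same way from separate lists. Genes of the mitochondrial ribosome, which makes the subunits encoded in mitochondrial DNA, had a median of -0.24 in replicate 2 against replicate 1, 71 of 77 below 0, 20 called lower and 0 higher. Mrpl41 (-0.69) and Mrpl34 (-0.73) were among them. With VPA 70 of the 77 lay below 0, with a median of -0.19 and 0 called, with 6 lower at an unadjusted p under 0.05 in limma. Cytosolic ribosomal proteins lay below 0 with VPA too, 55 of 60 with a median of -0.145 and 0 called, with 1 lower at an unadjusted p under 0.05. Of 41 assembly factors for all complexes, which include 7 of the 91 genes, 29 lay below 0 in replicate 2. Of them 7 were called lower and 1 higher (19.5% called, against 11.6% of all genes). Cox17, a copper chaperone for complex IV, was at -0.70 (adjusted p = 0.0032), and Atpaf1, an assembly factor of the ATP synthase head, at -0.49 (adjusted p = 0.013).

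Among 18 regulators of mitochondrial biogenesis 14 lay below 0 in replicate 2, and 2 were called lower. That share, 11.1%, is near the 11.6% of all genes called and under the 17.6% of those at or above the median level. Nrf1 was 8.59, 8.39 and 8.50 in replicate 1 and 7.93, 7.84 and 8.04 in replicate 2 (-0.56, adjusted p = 0.00861). Its part in the respiratory chain differences was not tested. Pprc1, a coactivator of the Ppargc1 family, was at -0.38 (adjusted p = 0.047). TCA cycle genes had a median of -0.13 with 15 of 17 below 0 and 0 called, with 3 lower at an unadjusted p under 0.05 in limma. Carriers and uncoupling proteins had a median of 0.00, with 4 of 8 below 0. Cytosolic ribosomal proteins had a median of 0.06, with 23 of 60 below 0, 5 called lower and 1 higher (10% called, against 11.6% of all genes).

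Glycolysis and hypoxia genes had a median of 0.38, with 22 of 22 above 0 and 11 called higher, and included Ndrg1 at 2.11 and Egln3 at 1.37. Fibroblast markers had a median of 0.39, with 7 of 17 called higher and 0 lower, and included Lox at 2.38 and Dcn at 2.29. The shares called were 50% and 41.2%, against 11.6% of all genes and 17.6% of those at or above the median level. Stem cell markers had a median of -0.13, with 8 of 10 below 0 and Nanog called lower at -0.47 (adjusted p = 0.0269). That call makes 10% of the list, near the 11.6% of all genes called. The genes of these lists that were called changed between the same arrays as the respiratory chain genes, and their part in the respiratory chain differences was not tested.

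**Figure D5:**
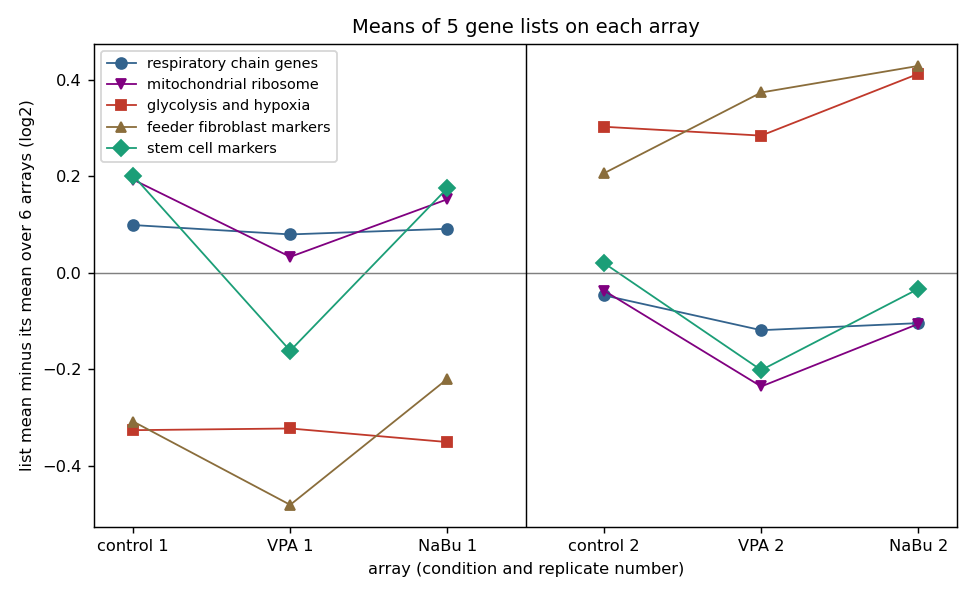
Mean log2 value of each gene list on each array (x axis) minus the list's mean over the 6 arrays (y axis), with replicate 1 left of the line and replicate 2 right of it. Respiratory chain and mitochondrial ribosome means are lower on all 3 replicate 2 arrays than on any replicate 1 array, and the glycolysis and fibroblast means are higher.

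The genes outside the 91 whose values followed the mean of the 91 most closely over the 6 arrays were Rsl24d1 (r = 0.999), Psmb7 (r = 0.999) and Mrpl41 (r = 0.997). Mrpl41 was 8.65, 8.62 and 8.62 in replicate 1 and 8.07, 7.87 and 7.89 in replicate 2. These values describe a ranking over all genes on 6 arrays that share the division by replicate number. Where 1 of the 91 genes had several probesets, they were compared. Of 18 such genes the sign of the replicate difference varied in 1 (Cox7a2l) and that of the VPA difference in 6 (Atp5md, Cox6c, Cycs, Ndufa11, Ndufab1 and Uqcrb).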

How the data were processed

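RNA from 6 samples, 2 each untreated, with VPA or with NaBu, was measured on one-colour arrays. The authors deposited log2 expression values per probeset; the submitters' processing notes name RMA and version 1.1 of Affymetrix Expression Console. For the annotation release and the RMA settings, nothing is given in the sources used here. The number of arrays limits the precision.

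Of 35556 probesets, 21789 had a single symbol, and the probeset with the highest mean stood for each of 19938 genes. Another 6 probesets matched the name pattern but listed several symbols and were left out, so Cox7c and Ndufb4 are not analysed here. The fits used R 4.3.3 and its package limma 3.58.1 (lmFit, eBayes without trend) on the whole table, with 1 mean per condition (3 residual degrees of freedom) or, for the replicate numbers, condition and replicate number as terms (2). An exact permutation test cannot go below p = 0.333 for 2 against 2 arrays or 0.1 for 3 against 3, so none was used. The fits were tested on simulated data.

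The labels number the replicates but state no pairing. Deviations of same-numbered arrays from their condition means correlated over all genes. The r was 0.558 (untreated and VPA), 0.693 (untreated and NaBu) and 0.567 (VPA and NaBu). With so few arrays a condition, deviations within it mirror each other, and such correlations can arise without pairing. They therefore cannot show whether the numbers pair the samples. A fit blocked by replicate number was an alternative. Others were array centring, quantile normalization, a filter on dim genes, the mean of all probesets, an intensity trend, no condition term, leaving out arrays, and Ndufa4 with Ndufa4l2 in complex I.

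Genes are named where they were called or, with fewer than 6 calls in a direction, had up to 6 of the largest moderated statistics, and further as core subunits, tissue isoforms, the 2 leading genes of each other list or the 3 genes most like the mean. Ndufv2, Cox6c, Uqcrb, Uqcrc2 and the VPA values of Cyct were added after their values were seen. The 91 genes, the lists and the tests were chosen with earlier results of these data known. Promoter sequences are RefSeq's on GRCm38.p6, which is not known to be the build of the array's annotation.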

Additional observations from a re-analysis of the deposited data

How the results depend on the processing

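The block by replicate number left 0 of the 91 genes called in each compound comparison, and it changed no other call; at an unadjusted p under 0.05 it had 8 genes for VPA, 1 for NaBu and 3 between the compounds, against 2, 0 and 0 without it. Member medians under the block stayed at -0.04, -0.02 and -0.02. Leaving out 1 array of a compared group unbalances the replicate numbers, and the member median then ran from -0.14 to 0.076 for VPA (0.02 without untreated replicate 1, -0.09 without untreated replicate 2), from -0.13 to 0.068 for NaBu (0.04 and -0.11) and from -0.12 to 0.085 between the compounds (0.07 without NaBu replicate 1, -0.10 without NaBu replicate 2). With median centring the member median was -0.073 for VPA, -0.022 for NaBu and -0.054 between the compounds. With quantile normalization it was -0.0070, -0.031 and 0.028. For replicate 2 against replicate 1, genes called lower numbered 14 in the fit described, 27 when genes under the median level were left out (where 26.5% of all genes tested were called) and 28 with an intensity trend (14.9%). They numbered 4 to 12 when a condition was left out, 6 without the untreated arrays and 4 without the NaBu arrays, with 1 to 3 called higher, and 6.87% and 3.59% of all genes called there, against 12.2% without the VPA arrays. Of the 16 calls, 16 were kept with centring, 13 with quantile normalization, 16 with the mean of probesets and 15 with the trend. Among the brighter genes 14 were kept, and Cox7b2 and Ndufb2 lay under the median level and were not tested there. With no condition term 11 were kept, but 7 without the untreated arrays, 12 without the VPA arrays and 5 without the NaBu arrays. Per-complex medians of the compound comparisons changed sign under scaling or with an array left out. None of the 16 changed sign under these alternatives. The fibroblast and glycolysis lists changed with the replicate number, and 2 arrays a group limit the compound comparisons.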
